A study of Mus musculus with 2 samples.

Results

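The collagen genes are the genes whose symbol in the array's annotation has the form of a collagen chain, Col followed by a type number, the letter a and a chain number. The rule that takes them uses the name and no signal. Of 18193 genes with an unambiguous symbol on the array, 42 were collagen genes. The brightest probe set, by mean log2 signal over the arrays, stood for each gene, and its remaining probe sets served as repeat readings. By the structures that their products form, 11 were fibrillar collagens, 6 were the type IV chains of basement membranes and 25 were other collagens.

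The samples were RNA pools from whole pancreas of C57BL/6J males aged 10 weeks. In the threonine-deficient pool the dams had eaten a diet short of threonine, an essential amino acid, from embryonic day 12.5 to 14.5. In the control pool the dams had received control diet over those days. All offspring were weaned at 3 weeks and ate control diet, so no animal was itself treated after birth. Each group was 1 pool on 1 array, so the spread between animals and between litters cannot be known, and none of the values below has a replicate, a standard deviation between samples or a p-value. The number of arrays limits the precision. The values are MAS5 signals, a linear brightness per probe set in arbitrary units.

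Collagens are the main structural proteins of the extracellular matrix. Their chains wind around each other into a rope-like helix in which glycine recurs at regular steps, and the helix needs hydroxylated prolines to be stable. Fibrillar collagens assemble into the fibres of connective tissue, type IV collagens form the sheet that underlies epithelia and surrounds vessels, and the others decorate fibrils, anchor membranes or form filaments and nets. In the pancreas, stellate cells and fibroblasts are the known makers of fibrillar collagen, while acinar, duct, islet and endothelial cells all rest on basement membranes. In bulk tissue, fewer cells of a type and less RNA per cell cannot be told apart.

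A signal was read as measured when it exceeded 264.9 units, which is where the 60th percentile fell on the brighter array. Lower signals were raised to this floor before the log2 ratio was taken, always as threonine-deficient over control, so a ratio with 1 signal at the floor is a lower bound. Of the 42 collagen genes, 14 lay above the floor on both arrays, 5 on the threonine-deficient array alone, none on the control array alone and 23 on neither. Over all genes, 1158 passed on the threonine-deficient array alone and 766 on the control array alone. The 19 collagens that passed on either array were 45.2% of the collagens, where the share over all genes was 59.1%. They were 8 of 11 fibrillar, 3 of 6 type IV and 8 of 25 other collagens.

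**Figure D1:**
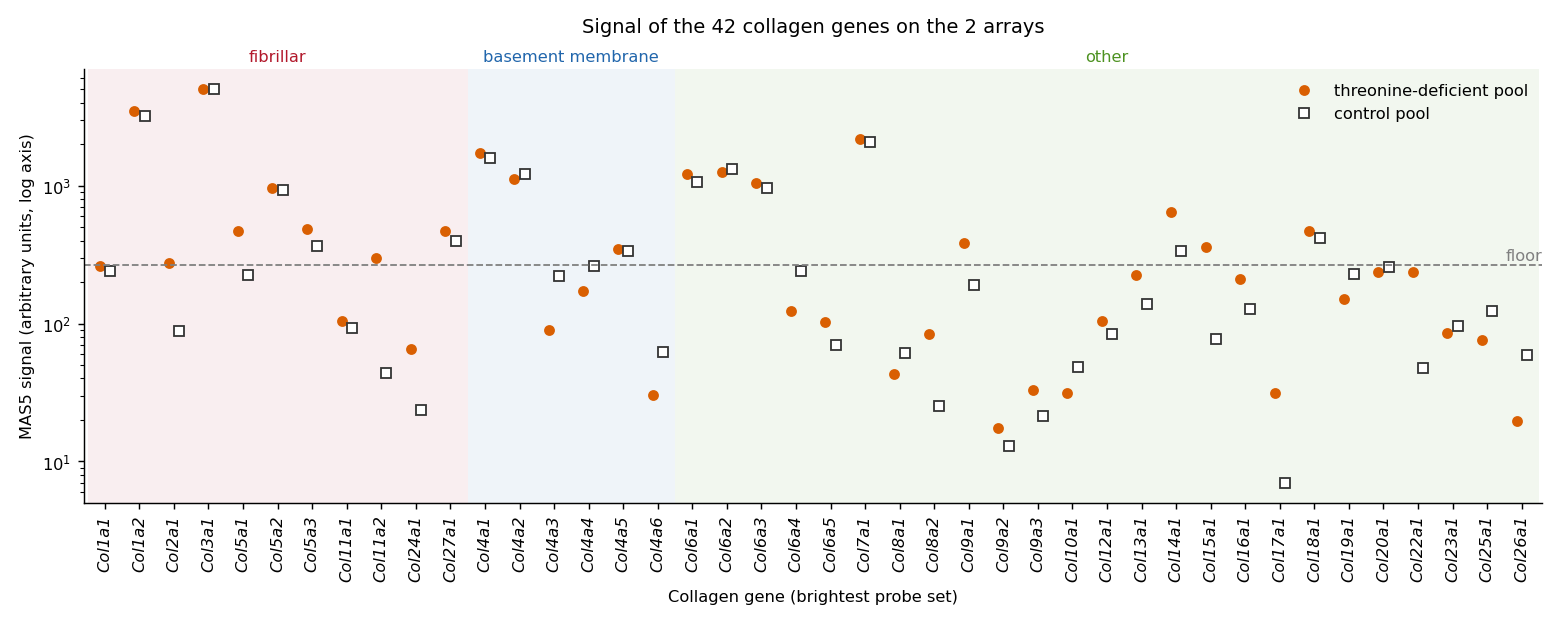
Signal of each of the 42 collagen genes (horizontal axis, grouped by class) in MAS5 units on a log axis, with the threonine-deficient pool as filled circles and the control pool as open squares. The dashed line is the floor of 264.9 units. The symbols of Col3a1, Col1a2, Col7a1, Col4a1, Col4a2, Col6a1, Col6a2 and Col6a3 nearly coincide near or above 1000 units, and the gaps widen below the floor.

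The well-measured collagens differed little between the pools. With lower signals raised to the floor, no collagen was at least 2-fold apart (0 of 19). Of the 10758 genes that passed on either array, 2.16% were. The ratios of the 5 collagens at the floor in the control pool are lower bounds. With no floor all 5 were at least 2-fold higher. They passed only through the threonine-deficient array, so they could not have had a negative ratio. With no floor, 1047 of 10758 genes were at least 2-fold apart, in either direction and on whichever array they passed. The like set is the 1158 genes that passed on the threonine-deficient array alone, whose share was not counted. Over the genes above the floor on both arrays, 0 of 14 collagens and 1.39% of 8834 genes were at least 2-fold apart. At 1.5-fold, 1 of these 14 was apart, Col14a1, which was higher in the threonine-deficient pool, where 10.2% of genes were apart and 5.42% were higher. With the members at the floor in the control pool it was 2 of 19, as Col5a1 was also higher, where 12.6% of genes were apart and 7.2% were higher. With so few members, these counts lie near the background.

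8 collagens reached 1000 units on at least 1 array, and their log2 ratios ran from −0.10 for Col4a2 to 0.18 for Col6a1. The widest of these differences was 1.13-fold. Over the 4456 genes of such brightness, 52.8% were no more than 1.13-fold apart in either direction. Each of the 8 was smaller than its local spread, a robust standard deviation of log2 ratios over the 300 genes nearest in signal.

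More of the collagens were higher than lower in the threonine-deficient pool, by small amounts. Of the 14 collagens above the floor on both arrays, 12 had a positive log2 ratio and 2 a negative ratio, with a median of 0.11. Over all 8834 such genes, 48.0% were positive and the median was −0.02. In the 4 collagens with another probe set that passed on both arrays, 0 had the same sign in both readings, although Col3a1 and Col4a1 each had a reading within 0.02 of 0. Second readings that passed on 1 array alone had the sign of the first for Col1a2 and Col4a5 and the opposite sign for Col5a1. Over 3246 genes with such a pair, 52.1% shared a sign, and the scatter between readings came to 0.34 per probe set (SD of log2 ratios), which covers probe and hybridisation noise only. It was 0.25 over the 4 collagens.

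**Figure D2:**
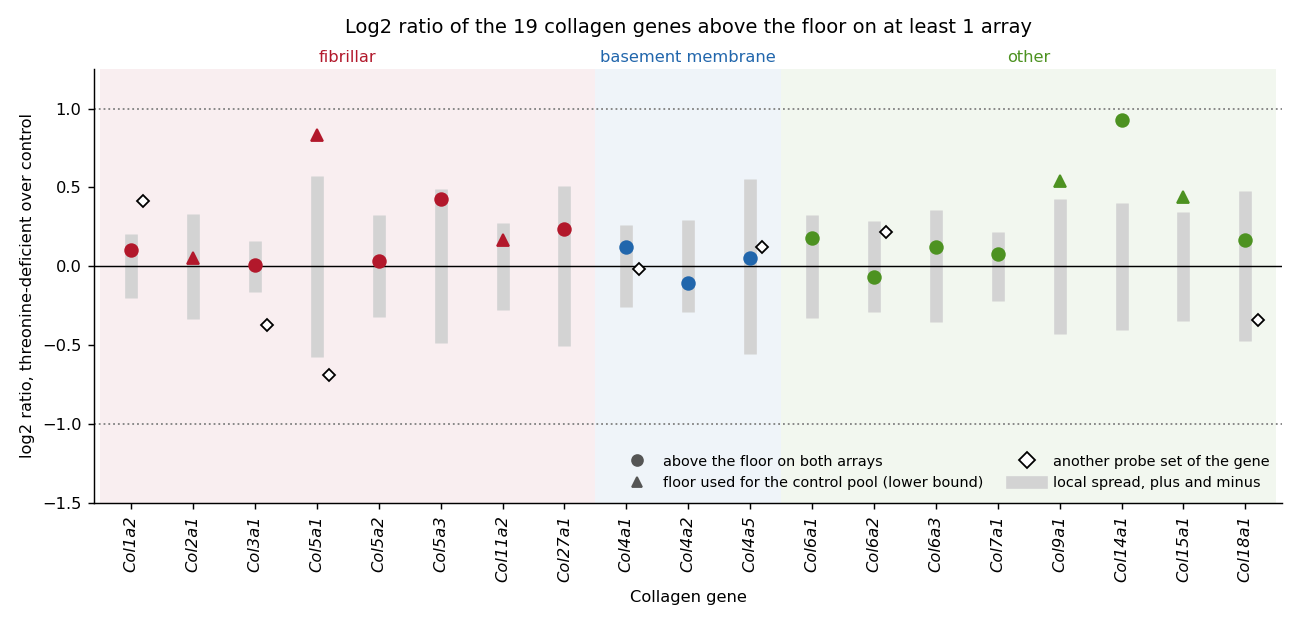
Log2 ratio, threonine-deficient over control (vertical axis), for the 19 collagen genes that passed the floor on either array. Circles are genes above the floor on both arrays, triangles are lower bounds, open diamonds are other probe sets of the gene that passed on either array (those of Col1a2, Col4a5 and Col5a1 are at the floor on 1 array), and grey bars are the local spread on each side of 0. No symbol reaches the dotted lines at 2-fold, and Col14a1 has the highest value, 0.93.

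Of the fibrillar collagens, type III and type I make the bulk of the fibres in soft connective tissue. Col3a1, the only chain of type III collagen, read 5035 units in the threonine-deficient pool and 5007 in the control pool, a log2 ratio of 0.01. Its dimmer probe set read 536 units in the threonine-deficient pool and 692 in the control pool, a log2 ratio of −0.37. The brighter reading of Col3a1 was therefore level, and the dimmer one lower in the threonine-deficient pool.

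Col1a2, the α2 chain of type I collagen, read 3467 units in the threonine-deficient pool and 3222 in the control pool, a log2 ratio of 0.11. A second probe set of Col1a2 read 354 units in the threonine-deficient pool and 190 in the control pool, at least 1.33-fold higher with the control signal at the floor. Its partner chain Col1a1 was not measured well. Its probe sets read 263 and 231 units in the threonine-deficient pool, against 240 and 255 units in the control pool, so both lay just under the floor and pointed opposite ways. Signals of different probe sets depend on their own probes, so no ratio of α1 to α2 chains can be read from them.

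Type V collagen sits inside type I fibrils and sets their diameter. Col5a2 read 955 units in the threonine-deficient pool and 935 in the control pool, a log2 ratio of 0.03. Col5a3 read 488 units in the threonine-deficient pool and 363 in the control pool, a log2 ratio of 0.43 beside a local spread of 0.49. Col5a1 gave contradictory readings. Its brightest probe set read 472 units in the threonine-deficient pool and 227 in the control pool, at least 1.78-fold higher. Another read 90.5 units in the threonine-deficient pool and 426 in the control pool, at least 1.61-fold lower. The median over the probe sets of Col5a1 was a log2 ratio of 0.00, the value of a further probe set that was below the floor on both arrays.

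The remaining fibrillar genes were dim. Col27a1 read 468 units in the threonine-deficient pool and 396 in the control pool, a log2 ratio of 0.24. The cartilage chains Col2a1 and Col11a2 were just above the floor in the threonine-deficient pool, at 275 and 298 units, and below it in the control pool, at 88.5 and 44.2 units. These are folds of at least 1.04 and at least 1.12. Col11a1 and Col24a1 passed on neither array. The 8 fibrillar genes that passed on either array had a median log2 ratio of 0.14, and the 5 above it on both had 0.11. The 3 genes that separate these medians passed only through the threonine-deficient array, so they could not have had a negative ratio.

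Type IV collagen is the network of basement membranes, and its most widespread form joins α1 with α2 chains. Col4a1 read 1731 units in the threonine-deficient pool and 1590 in the control pool, a log2 ratio of 0.12, with −0.02 in its second probe set (565 units in the threonine-deficient pool and 572 in the control pool). Col4a2 read 1124 units in the threonine-deficient pool and 1207 in the control pool, a log2 ratio of −0.10. The 2 chains of this network thus lay on opposite sides of 0, each by less than its local spread of 0.26 and 0.29. Col4a5, a chain best known from kidney and smooth muscle basement membranes, read 348 units in the threonine-deficient pool and 335 in the control pool, a log2 ratio of 0.05. Its second probe set was at 288 units in the threonine-deficient pool and below the floor, at 124, in the control pool.

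Col4a3, Col4a4 and Col4a6 passed on neither array. In the threonine-deficient pool Col4a3 read 90.5 units, Col4a4 173 units and Col4a6 30.5 units. In the control pool they read 221, 260 and 61.9 units, in the same order, so all 3 were dimmer in the threonine-deficient pool, at levels where no fold is given. The other probe sets of Col4a4 were also below the floor and pointed both ways, at 14.3 and 183 units in the threonine-deficient pool and 108 and 28.8 units in the control pool. The median log2 ratio of the 3 type IV genes above the floor was 0.05. It was 0.08 below that of the fibrillar genes, and 0.05 below it when only genes above the floor on both arrays were counted. The ratios of the type IV genes, −0.10 to 0.12, overlapped those of the 5 fibrillar genes above the floor on both arrays, 0.01 to 0.43.

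Col4a1 and Col4a2 are neighbours on chromosome 8 and are transcribed away from each other from a common start region. Their windows of 250 bases before to 50 bases after the start overlap by 78 bases in RefSeq's GRCm38.p6 table. They are shown because the start regions of these partner chains overlap, with the overlapping bases in capitals. The window of Col4a1 is chr8:11312777-11313076 on the minus strand and that of Col4a2 is chr8:11312555-11312854 on the plus strand.
Col4a1: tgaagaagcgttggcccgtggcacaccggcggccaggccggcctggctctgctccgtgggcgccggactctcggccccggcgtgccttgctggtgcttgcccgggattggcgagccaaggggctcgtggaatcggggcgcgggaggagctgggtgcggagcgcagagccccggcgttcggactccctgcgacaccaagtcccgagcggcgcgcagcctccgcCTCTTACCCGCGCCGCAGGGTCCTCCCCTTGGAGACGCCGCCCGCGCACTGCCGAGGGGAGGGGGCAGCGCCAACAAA
Col4a2: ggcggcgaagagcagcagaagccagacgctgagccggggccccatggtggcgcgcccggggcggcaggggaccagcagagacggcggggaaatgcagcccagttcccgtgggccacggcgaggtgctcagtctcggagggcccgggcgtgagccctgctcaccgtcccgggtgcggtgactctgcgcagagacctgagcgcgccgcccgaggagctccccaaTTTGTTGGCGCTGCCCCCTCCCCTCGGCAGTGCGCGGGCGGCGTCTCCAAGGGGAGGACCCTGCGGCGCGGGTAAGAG
GC content was 74.0% in the window of Col4a1 and 73.7% in that of Col4a2. Each held CCAAT and GGGCGG on 1 strand or the other, and neither held TATAAA.

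The windows of the brightest fibrillar genes differed from each other in base composition and in the motifs they held. They are shown for that contrast, with capitals for matches on either strand to CCAAT and to GGGCGG and to TATAAA, none of which overlapped. The window of Col1a2 is chr6:4505368-4505667 and that of Col3a1 is chr1:45311288-45311587, both on the plus strand.
Col1a2: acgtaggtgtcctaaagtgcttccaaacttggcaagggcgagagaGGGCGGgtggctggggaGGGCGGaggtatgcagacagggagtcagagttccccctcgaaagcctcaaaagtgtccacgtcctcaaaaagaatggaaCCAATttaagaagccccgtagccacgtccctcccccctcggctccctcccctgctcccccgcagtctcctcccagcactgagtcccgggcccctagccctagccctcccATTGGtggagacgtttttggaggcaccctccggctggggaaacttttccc
Col3a1: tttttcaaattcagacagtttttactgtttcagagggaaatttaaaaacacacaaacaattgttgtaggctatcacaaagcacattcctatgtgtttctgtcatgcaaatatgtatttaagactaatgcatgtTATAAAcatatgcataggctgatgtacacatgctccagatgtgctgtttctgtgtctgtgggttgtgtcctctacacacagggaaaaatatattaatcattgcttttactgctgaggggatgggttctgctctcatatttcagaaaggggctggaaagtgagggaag
GC content was 61.0% for Col1a2, which had 4 matches to CCAAT or GGGCGG, and 37.7% for Col3a1, which had 1 match, to TATAAA. The log2 ratios of these genes were 0.11 and 0.01.

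RefSeq windows were found for 16 of the 19 collagens that passed on either array and for 17 of the 23 below it. GGGCGG occurred in 68.8% of the first set of windows, CCAAT in 43.8% and TATAAA in 12.5%. Among the 17 dim collagens the shares were 58.8%, 29.4% and 17.6%. Over all 27025 genes in the table they were 35.9%, 37.9% and 14.2%. The median GC content was 60% in both sets of collagens and 52.7% over all genes. A match of letters is a description of the window and does not show that a factor binds there.

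Among the other collagens, type VI is the beaded filament that lies around cells and basement membranes. Its 3 standard chains all read near or above 1000 units. Col6a1 read 1212 units in the threonine-deficient pool and 1070 in the control pool, a log2 ratio of 0.18. Col6a2 read 1252 units in the threonine-deficient pool and 1314 in the control pool, a log2 ratio of −0.07, with 0.22 in its second probe set (953 units in the threonine-deficient pool and 820 in the control pool). Col6a3 read 1044 units in the threonine-deficient pool and 959 in the control pool, a log2 ratio of 0.12. The widest of these 4 differences was 1.16-fold, and Col6a1 and Col6a2, which are chromosomal neighbours, had opposite signs in their brightest probe sets. The related chains Col6a4 and Col6a5 lay below the floor.

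Col7a1, the chain of the anchoring fibrils that tie epithelia of skin and mucosa to their stroma, was bright. Its 1 probe set read 2183 units in the threonine-deficient pool and 2067 in the control pool, a log2 ratio of 0.08. With no second probe set, this level in pancreas has no repeat reading.

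The multiplexins Col15a1 and Col18a1 are collagens of the basement membrane zone, whose released ends are known as inhibitors of vessel growth. Col18a1 read 473 units in the threonine-deficient pool and 421 in the control pool, a log2 ratio of 0.17, with −0.34 in its second probe set (273 units in the threonine-deficient pool and 346 in the control pool). Col15a1 read 359 units in the threonine-deficient pool and 76.8 in the control pool, at least 1.35-fold higher. It was read by 1 probe set. Counting these genes with type IV changed the class median to 0.12. Col15a1 passed only through the threonine-deficient array, so it could not have had a negative ratio.

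Col14a1, a collagen that sits on the surface of fibrils, had the highest ratio of the 19 collagens. It read 643 units in the threonine-deficient pool and 338 in the control pool, 1.90-fold higher, a log2 ratio of 0.93 beside a local spread of 0.40. The probe set ends in _a_at, which marks probes that can match several transcripts of the gene. A second probe set of Col14a1 read 35.1 units in the threonine-deficient pool and 254 in the control pool, below the floor on both arrays and in the opposite direction, and a further one read 6.90 units in the threonine-deficient pool and 7.21 in the control pool. With readings below the floor set to it, the median over the probe sets was a log2 ratio of 0.00. Col9a1, a cartilage chain of the same fibril-associated family, read 385 units in the threonine-deficient pool and 192 in the control pool, at least 1.45-fold higher, and its dimmer probe set was below the floor.

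**Figure D3:**
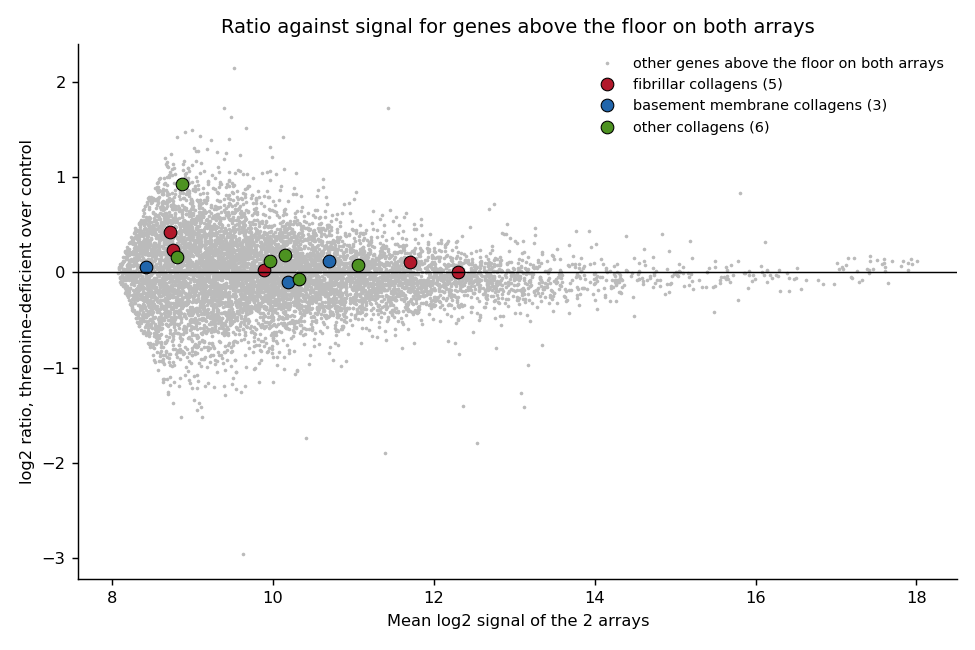
Log2 ratio, threonine-deficient over control (vertical axis), against the mean log2 signal of the arrays (horizontal axis) for genes above the floor on both. Grey points are other genes and coloured circles the 14 collagens by class. The collagens lie within the cloud, 12 of the 14 above 0, and Col14a1, at 0.93, lies near its upper edge at low signal.

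The other 17 collagens of this class were below the floor on both arrays. They were the fibril-associated Col9a2, Col9a3, Col12a1, Col16a1, Col19a1, Col20a1 and Col22a1, the transmembrane Col13a1, Col17a1, Col23a1 and Col25a1, the short-chain network formers Col8a1, Col8a2 and Col10a1, and Col6a4, Col6a5 and Col26a1. Of all 23 collagens below the floor, 12 had the higher signal in the threonine-deficient pool, 52.2%, where it was 53.6% of the 7435 genes below the floor. Their signals ran from 17.5 to 263 units in the threonine-deficient pool and from 6.98 to 260 in the control pool.

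Collagen genes often lie in pairs on a chromosome, and 3 such pairs had both members above the floor on both arrays. Col3a1 and Col5a2 lie side by side on chromosome 1 and had log2 ratios of 0.01 and 0.03. The pairs Col4a1 with Col4a2 and Col6a1 with Col6a2 each had 1 positive and 1 negative ratio.

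The genes that build, bind and break down collagen were read from lists chosen by function. For this list and those that follow, 2-fold counts use the brightest probe sets, with lower signals raised to the floor. Of all 10758 genes, 2.16% were at least 2-fold apart by that measure. In lists this small, a count of none lies near that share. None of the 16 genes of collagen folding and hydroxylation above the floor was at least 2-fold apart. Of these, 7 were positive and 9 negative, with a median log2 ratio of −0.03. Creb3l1, a membrane-bound transcription factor that drives procollagen secretion, read 155 units in the threonine-deficient pool and 390 in the control pool, at least 1.47-fold lower. Mia2, which serves export of bulky cargo from the endoplasmic reticulum, read 389 units in the threonine-deficient pool and 195 in the control pool, at least 1.47-fold higher. The lysyl hydroxylases Plod3 and Plod1 had log2 ratios of −0.45 and −0.43. The median of all 10758 genes was 0.00.

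Procollagen processing and crosslinking had 8 genes above the floor, with 4 positive, 4 negative and none 2-fold apart. Their median log2 ratio was 0.11. Tgm2, a transglutaminase that links matrix proteins, had 0.61, with other probe sets from −0.33 to 0.64. The lysyl oxidases Lox and Loxl3, which crosslink collagen, had 0.27 and 0.28, beside local spreads of 0.54 and 0.61. Their relatives Loxl1 and Loxl4 went the other way, with −0.13 and a bound of −0.04. Pcolce2, an enhancer of propeptide removal, was at least 1.28-fold lower.

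The fibril-associated matrix list had 19 genes above the floor, 11 positive and 8 negative, with a median log2 ratio of 0.09. Tnxb, tenascin-X, which organises collagen fibrils, was the 1 gene at least 2-fold apart in its brightest probe set. It read 269 units in the threonine-deficient pool, just above the floor, and 584 in the control pool, 2.17-fold lower. The microfibril gene Mfap5 had 0.61, and 0.58 in its other probe set. Mfap2, also of microfibrils, was at least 1.39-fold higher, and Fmod, a proteoglycan that binds type I fibrils, at least 1.45-fold higher. Another probe set of Mfap2 read 635 units in the threonine-deficient pool and 67.4 in the control pool, a log2 ratio of at least 1.26.

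The laminins and other basement membrane partners had a median log2 ratio of 0.29 over 13 genes, with 8 positive, 5 negative and none 2-fold apart. The median was 0.18 over the 12 genes above the floor on both arrays. Tinagl1, a matrix protein of basement membranes, read 503 units in the threonine-deficient pool and 144 in the control pool, at least 1.90-fold higher. Hspg2, the heparan sulfate proteoglycan perlecan, had 0.71, the laminin α5 gene Lama5 0.59 and the matricellular gene Smoc2 0.63. Other probe sets of these genes gave −0.41 for Hspg2, −0.15 for Lama5 and −0.26 for Smoc2. The type IV collagens, the partners of these proteins in the membrane, had a median of 0.05.

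Of the collagen receptors, 5 were above the floor and their median log2 ratio was −0.18. Ddr2, a receptor kinase for fibrillar collagen, read 1058 units in the threonine-deficient pool and 512 in the control pool, 2.07-fold higher, with 0.30 in its other probe set. Ddr1, the related kinase of epithelia, had −0.37, with other probe sets from −0.23 to 0.82. The integrin genes Itga1 and Itga10 had −0.21 and a bound of −0.18. Collagen degradation and its inhibitors had 7 genes above the floor, none 2-fold apart. Of the 4 above it on both arrays, 3 were positive and 1 negative, with a median of 0.26. The negative gene, the inhibitor Timp3, had −0.08, but its other probe sets ran from 0.35 to 0.66. The other probe sets of the inhibitor gene Timp2 ran from −0.27 to 1.14. Mmp2, a gelatinase, had 0.48, and 1.14 in another probe set, and the membrane protease Mmp14 had 0.29. Timp4, an inhibitor of these proteases, and the stromelysin Mmp3 were at least 1.42-fold and at least 1.19-fold higher.

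TGF-beta signalling, the best known inducer of collagen genes, had 13 genes above the floor, 8 positive and 5 negative, with a median of 0.19. Smad2, a mediator of the signal, read 1114 units in the threonine-deficient pool and 534 in the control pool, 2.09-fold higher, but its other probe set gave −0.05. Ccn2, a matrix gene that responds to TGF-beta, had 0.31, the latent binding protein Ltbp4 0.35, and the ligand Tgfb3 a bound of −0.45.

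**Figure D4:**
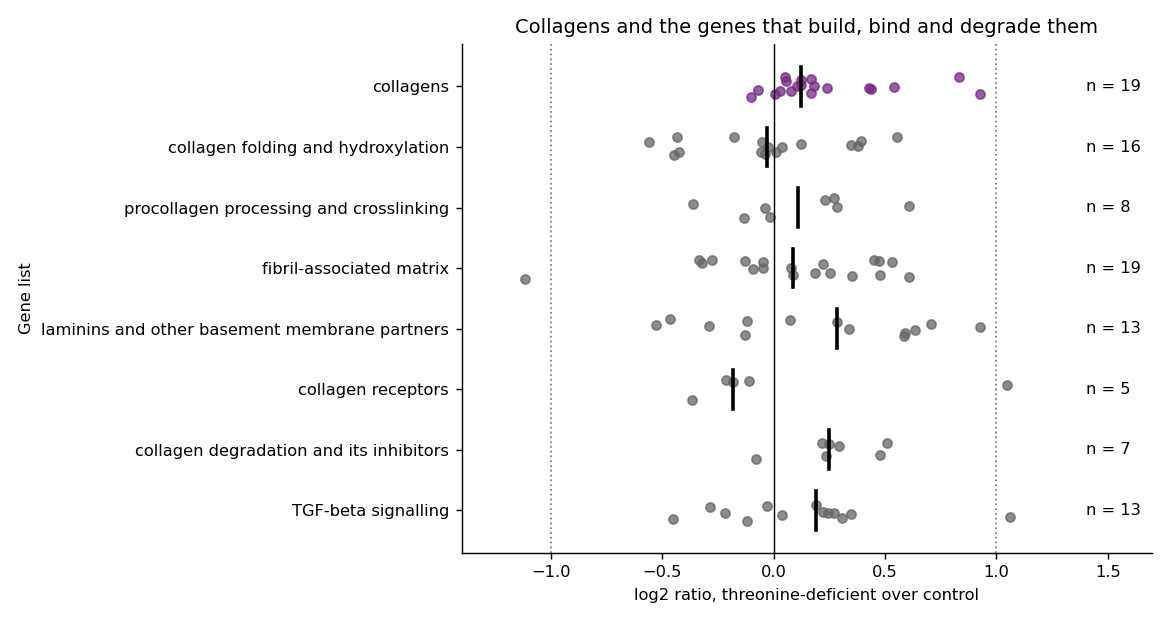
Log2 ratio, threonine-deficient over control (horizontal axis), for the collagens and for lists of related genes that passed the floor on either array (rows). Points are genes, black bars medians, dotted lines 2-fold, and n the genes shown. The 19 collagens span −0.10 to 0.93, while every other list but collagen degradation reaches further below 0.

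Markers of the cells that make collagen pointed both ways. Stellate cell and fibroblast markers had 12 of 14 members above the floor, with 7 positive, 5 negative and a median log2 ratio of 0.10. Their summed signal was 35460 units in the threonine-deficient pool and 35900 in the control pool. Clec3b, which encodes tetranectin, was at least 2.31-fold lower, and Reck, an inhibitor of matrix proteases, at least 2.16-fold higher. The surface markers Thy1 and Pdpn were at least 1.64-fold higher and at a log2 ratio of 0.68. The brightest probe sets of Des and Pdgfrb, which define stellate cells and pericytes, were below the floor on both arrays, although another probe set of Des passed, with a log2 ratio of 0.10. Counting only the 8 markers above the floor on both arrays gave 4 positive, 4 negative and a median of 0.02.

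Endothelial markers, whose cells lay down type IV and type XV collagen, had 8 of 8 members above the floor on both arrays positive, with a median log2 ratio of 0.24. Over all 11 members, the summed signals were 8442 units in the threonine-deficient pool and 6669 in the control pool. Other probe sets went the opposite way for Flt1, with −0.13 and −0.08, and for Ptprb, with −0.50. Adipocyte markers had 6 of 7 negative, with a median of −0.98 and summed signals of 23500 units in the threonine-deficient pool and 42860 in the control pool. That median is the value of Fabp4, whose other probe sets gave −0.47 and a bound of −0.15. Other probe sets of Car3 and Lpl gave −1.69 and −0.23. Smooth muscle markers had 3 of 3 members above the floor on both arrays negative, with a median of −0.10, of which Acta2 was at −0.01 and other probe sets of Mylk gave 0.59 and 0.34. All 8 members had summed signals of 3824 units in the threonine-deficient pool and 4447 in the control pool. Macrophage markers had a median of 0.34 over 7 members above the floor, 4 positive and 3 negative. All 8 on the array had sums of 8991 units in the threonine-deficient pool and 8866 in the control pool. The labelled tissue was borne out by acinar markers, which summed to 817800 units in the threonine-deficient pool and 755300 in the control pool, and by islet markers, all 6 of which were above the floor. The islet markers were 6 of 6 negative, with a median of −0.35 and sums of 142900 units in the threonine-deficient pool and 173900 in the control pool. The 4 duct markers above the floor, 3 positive and 1 negative, centred on a median log2 ratio of 0.60, with Car2 at 2.14. Sox9 had 0.89, and a bound of 0.33 in another probe set. Cftr and Krt7 were below the floor on both arrays. The 6 duct markers on the array had sums of 5518 units in the threonine-deficient pool and 4029 in the control pool. Of the B cell list, 4 markers passed, 3 positive and 1 negative, with a median log2 ratio of 0.06, and the list had sums of 3081 units in the threonine-deficient pool and 6402 in the control pool, of which the immunoglobulin gene Ighm had 1398 in the threonine-deficient pool and 5210 in the control pool. The part of these cell types in the collagen values was not tested.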

How the data were processed

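Pancreatic RNA from 1 pool per group was labelled with the GeneChip 3' IVT Express Kit and hybridised to 1 Affymetrix Mouse Genome 430 2.0 array each, per the labels' protocols. The deposited values are linear signal intensities, made by the authors with MAS5 per the submitters' processing notes, of a version not given in the sources used here. The trimmed mean was 500.0 on both arrays, so ratios are relative to the rest of the array. Of 45101 probe sets, 34945 had 1 symbol, 932 several and 9160 none, with 64 controls left out. Of the probe sets with 1 symbol, 34741 matched a gene of RefSeq GRCm38.p6.

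Members were the genes whose platform symbol fitted the collagen form, and all those above the floor were named. Up to 4 members of each further list were named by size of log2 ratio, and some others as checks. Members and lists were chosen with earlier results of these data known. The alternatives changed centring, floor, probe set choice, class boundary and fold threshold. The procedure was tested on simulated data. Python 3.11.15, pandas 2.3.3 and statsmodels 0.14.6 (loess) were used.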

Additional observations from a re-analysis of the deposited data

How the results depend on the processing

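The count of collagens at least 2-fold apart, 0 of 19, became 2 with the floor at the 50th percentile (Col5a1 and Col9a1, among 547 of 12735 genes) and 5 with no floor (among 1047 of 10758 genes). These 5 were the members whose control signal lay below the floor, so they could only be higher in the threonine-deficient pool. At a threshold of 1.5-fold it was 2. The median log2 ratio of all collagens stayed within 0.1 of its value of 0.12 under every alternative run. The fibrillar median of 0.14 became 0.33 with no floor, 0.24 with the floor at the 50th percentile or without probe sets of a sharing suffix (_s_at, _x_at or _a_at), and 0.031 with the floor at the 75th percentile. The type IV median of 0.05 became −0.10 with the floor at the 50th percentile. The difference of the type IV from the fibrillar median, −0.08, became −0.28 with no floor, −0.34 with the floor at the 50th percentile and −0.18 without sharing suffixes, and shrank to −0.016 with Col15a1 and Col18a1 counted with type IV, −0.022 with the floor at the 75th percentile and −0.027 with the median over probe sets. The cause was not tested. Counting only genes above the floor on both arrays, an alternative chosen after seeing the data, moved no class median by 0.1. Of 139 values of single collagens under the alternatives, 17 moved by more than the local spread, and signs changed for Col18a1, Col2a1, Col3a1, Col4a5 and Col6a2 under at least 1 of them. Low signal leaves 23 collagens with no ratio. No paired analysis was possible because each group was 1 array.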
